A study of Mus musculus with 4 samples.

Results

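miR-335 is made from a hairpin inside Mest, an imprinted mouse gene, and its precursor gives 2 mature strands, miR-335-5p and miR-335-3p. Both were read from mouse neural stem and progenitor cells. The members were chosen by name, as every array feature annotated to either strand, because both had lower values at passage 1 than at passage 0 in these same data. They are 2 of the 611 mouse miRNAs on the array. The passage differences below are therefore a description, with no test. The difference between the cell lines was not used in the choice. It was tested for miR-335-5p, which was detected on all 4 arrays. For miR-335-3p it is described at passage 0 without a test. A fit with its low values raised to the lowest detected signal is given at the end, where that floor sets its passage 1 values.

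The cells came from mouse embryonic stem cells (ESCs) by way of embryoid bodies and grew as neurospheres, free-floating balls of neural progenitors. Primary spheres (passage 0) were collected after 6 days and secondary spheres (passage 1) after 12 days, so passage and time in culture cannot be told apart. At each passage, cells overexpressing NFIA, a transcription factor that promotes the making of astrocytes, were grown in the same spheres as control cells and sorted from them by fluorescence. Each of the 4 sorted samples was hybridised to 1 one-colour Agilent miRNA array, with no replicate. How NFIA was expressed, the number of clones behind the line and the sorting marker are not given in the sources used here.

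The labels disagree on which cells overexpressed NFIA. At each passage the sample with a control title is described in its source field as the NFIA line, and the sample with an NFIA OE (overexpression) title as wild type. Groups here follow the titles, and the arrays are called P0 control, P0 OE, P1 control and P1 OE after them, with P0 and P1 for the passages. By the source field every difference between OE and control would change its sign. The differences between passages would not.

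A miRNA precursor is cut from its host transcript as a hairpin, and a further cut leaves a short duplex of 2 strands. One strand is usually retained by an Argonaute protein, and its seed, bases 2 to 8, pairs with target mRNAs. Mest, also called Peg1, is expressed from the paternal allele and is best known from mesoderm and from fetal growth. miR-335 is known as a suppressor of metastasis in breast cancer cells, and in fetal mouse neurospheres as 1 of a small group of miRNAs lowered by ethanol. Fewer cells that express it and less of it per cell cannot be told apart in these sorted bulk samples.

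The 2 mature strands are shown first because the arrays read them apart and they share no seed. Each is written 5′ to 3′ from RefSeq (build GRCm38.p6), with its seed in capitals.
mmu-miR-335-5p: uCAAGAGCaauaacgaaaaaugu
mmu-miR-335-3p: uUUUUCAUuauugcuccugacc
The 5p strand has 23 bases, 30.4% of them G or C, and lies at chr6:30741314-30741336 on the plus strand. The 3p strand has 22 bases, 36.4% of them G or C, and lies at chr6:30741354-30741375. No other miRNA among the 1679 distinct mature miRNAs in the RefSeq table has the seed of miR-335-5p (0) or that of miR-335-3p (0). Neither strand therefore has a partner of the same seed whose values could be set beside it.

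The hairpin is shown because both strands come from it. The mature strands are in capitals.
Mir335 hairpin: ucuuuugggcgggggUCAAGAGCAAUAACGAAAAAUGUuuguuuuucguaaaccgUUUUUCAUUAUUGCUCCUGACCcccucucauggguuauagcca
It has 98 bases at chr6:30741299-30741396 on the plus strand, and its position falls within Mest (chr6:30733506-30748466), which is on the same strand. Mest has 3 annotated start sites in the RefSeq table, and the hairpin begins 7793, 3249 and 3246 bases downstream of them. In the minimum free energy fold (RNAfold) 18 of the 23 bases of the 5p strand paired with the 3p strand. In that fold 6 of the 7 seed bases of each strand were paired.

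The arrays detected 186 to 220 mouse miRNAs, and 153 were detected on all 4. A probe counted as detected where the scanner's flag put 50% or more of its spots well above background, and a miRNA where at least 1 probe was. The P0 control array was the dimmest. Its 75th percentile over commonly detected probes was 167 intensity units, against 261 (P0 OE), 443 (P1 control) and 369 (P1 OE). Levels below are log2 of a probe's intensity divided by this percentile of its own array, unless raw intensity is named. Each array held 434 negative-control spots with a median intensity of 2.92 to 3.72 units.

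miR-335-5p was well above background on every array, by both of its probes, and its level was highest on the P0 control array and lowest on the P1 OE array. The brighter probe was read by 10 spots on each array. Its raw intensity was 378 ± 13.6 units (SD over 10 spots) on the P0 control array and 339 ± 15.9 (10 spots) on the P0 OE array. On the P1 arrays it was 265 ± 8.76 (10 spots) for control and 190 ± 6.84 (9 spots) for OE. Even before any scaling, the spots of both P1 arrays (180 to 280 units) lay below those of both P0 arrays (319 to 397 units). The P0 arrays overlapped with each other, from 359 to 397 and from 319 to 364 units.

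The dimmer probe showed the same order at a lower signal. Its raw intensity was 56.8 ± 5.47 (10 spots), 51.5 ± 3.20 (8 spots), 40.4 ± 4.54 (10 spots) and 28.0 ± 2.48 (7 spots) in the order just given. Before scaling, the lowest P0 control spot of this probe (45.4 units) lay below its highest P1 control spot (46.5 units). Spots are repeats on 1 array and measure technical error only.

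**Figure D1:**
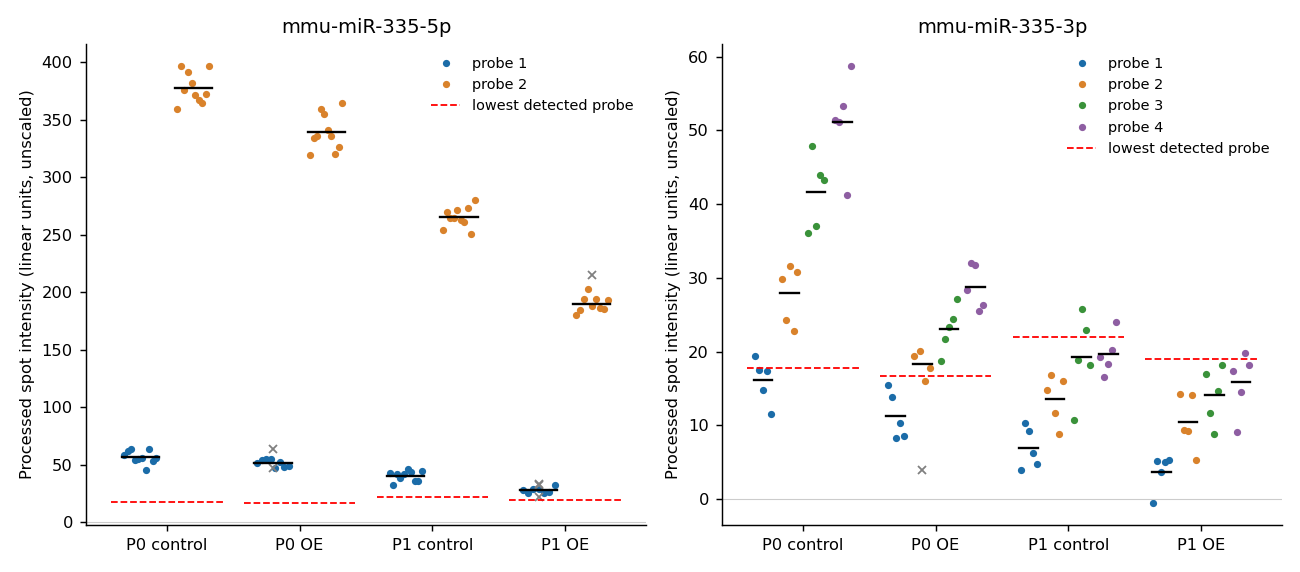
Processed intensity of every spot (linear units, not scaled between arrays) for the 2 probes of miR-335-5p and the 4 probes of miR-335-3p on each array. Black bars are means, grey crosses are spots left out as outliers and red dashed lines mark the lowest detected probe of each array. The brighter miR-335-5p probe falls from 378 to 190 units across the arrays, and the miR-335-3p probes reach the dashed line on the P1 arrays.

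Scaled to its own array, miR-335-5p stood at -0.19 on the P0 control array, -0.98 on the P0 OE array, -2.10 on the P1 control array and -2.34 on the P1 OE array. The standard error over spots was at most 0.027. After scaling, the spots of the brighter probe did not overlap between any of the arrays. On that scale the dimmer probe's spots overlapped between the P1 arrays (-3.76 to -3.25 and -3.86 to -3.50) and nowhere else.

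From passage 0 to passage 1 the scaled level of miR-335-5p differed by -1.63 on the log2 scale (SE 0.29, 2 arrays per passage), or 3.10-fold lower at passage 1. The control pair differed by -1.91 (3.75-fold lower) and the OE pair by -1.36 (2.56-fold lower). The probes gave nearly the same values, -1.90 and -1.91 in the control pair and -1.38 and -1.34 in the OE pair. These values chose the miRNA and carry no test. For orientation, limma called 50 of the 153 miRNAs lower at passage 1 (32.7%) and 20 higher (13.1%), and the median miRNA stood at -0.39. This split moves with the scaling. It was 5 lower and 25 higher with a percentile over all probes, 1 and 20 without scaling, and 17 and 39 with the authors' processed values, where the median miRNA stood at 0.36, 0.56 and 0.27. It was 39 and 22 with median centring, 30 and 21 with quantile normalization and 73 and 14 with normexp. miR-335-5p had the rank 6 from the low end.

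All passage differences shift with the scaling between arrays, but the sign for miR-335-5p was negative under each of the 8 settings run. Its value ran from -1.63 to -0.68, the smallest being that without scaling, and was -0.98 with the authors' processed values. In the latter the deposited intensities were 14.4 and 7.53 on P0 control and P0 OE and 5.94 and 4.68 on P1 control and P1 OE, in the authors' deposited table. Taken relative to the median miRNA it stood at -1.24 in the reported setting, -1.26 with the authors' processed values and -0.70 with normexp, a background correction that adds an offset to every spot. Without scaling the OE pair differed more (-0.86) than the control pair (-0.50), the reverse of the order in every other setting. The difference between the pairs was not tested.

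**Figure D2:**
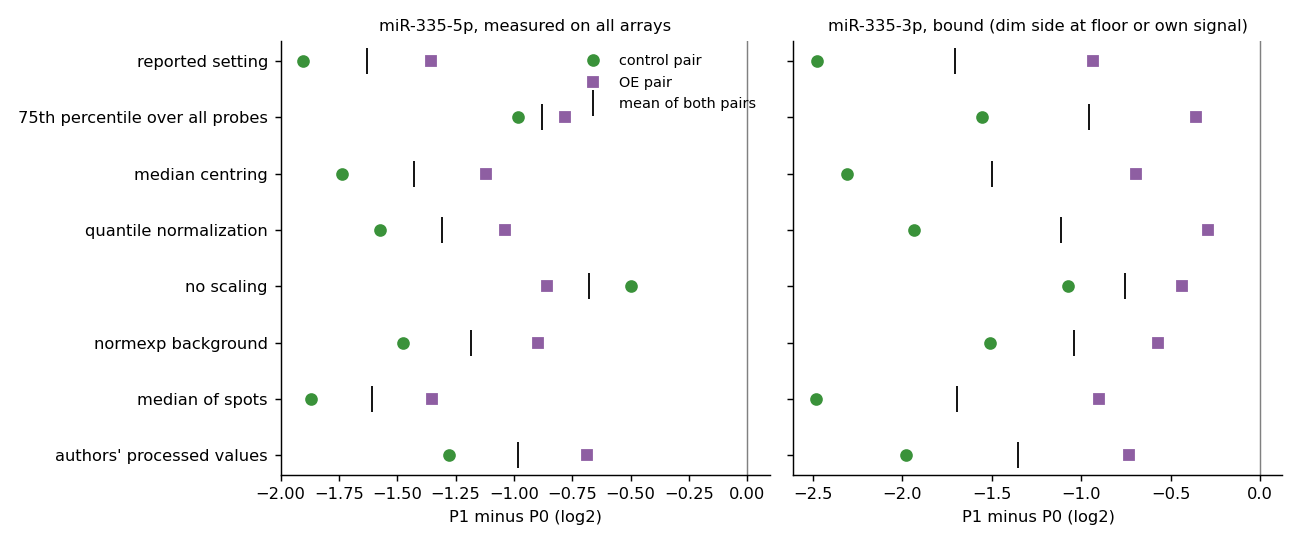
Passage difference (secondary minus primary, log2) of miR-335-5p, left, and the bound on that of miR-335-3p, right, under 8 processing settings; authors' values are as deposited. Circles are the control pair, squares the OE pair and bars their mean. Every point lies below 0, and for miR-335-5p the mean runs from -1.63 to -0.68.

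miR-335-3p, the strand from the other arm of the hairpin, was detected on both P0 arrays and on neither P1 array. It was read by 4 probes of 5 spots each. Of its spots that carried no outlier flag, 16 of 20 were well above background on the P0 control array and 10 of 19 on the P0 OE array. On the P1 arrays 3 of 20 were for control and 0 of 20 for OE. The scanner's own gene-level flag called the strand detected on all 4 arrays, so the absence from passage 1 depends on the rule for detection.

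Its brightest probe had a raw intensity of 51.2 ± 6.34 and 28.8 ± 3.03 on P0 control and P0 OE, and of 19.6 ± 2.77 and 15.8 ± 4.22 on the P1 ones (SD over 5 spots each). The lowest detected probes of the P1 arrays had 21.9 and 19.05 units, above these values. The spots of this probe were still above most negative controls. On the P1 control array all 5 exceeded the 99th percentile of the negative-control spots (12.3 units), and on the P1 OE array 4 of 5 did (11.8 units). Over all 4 probes 12 of 20 spots did on the P1 control array and 9 of 20 on the P1 OE array. Above the highest negative-control spot there were 0 and 1.

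Over the 2 probes detected on both P0 arrays, the level of miR-335-3p was -1.86 on the P0 control array and -3.34 on the P0 OE array. As measured, it was -4.51 and -4.63 on the P1 arrays, below the lowest detected levels there (-4.34 and -4.27). A fold against passage 1 is thus a lower bound. It sets the primary mean against the higher of the strand's own signal and the lowest detected signal of each P1 array.

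By that bound miR-335-3p was at least 3.26-fold lower at passage 1. It was at least 5.57-fold lower in the control pair and at least 1.91-fold lower in the OE pair. Over the 8 settings these bounds ran from 2.10 to 5.60-fold and from 1.22 to 1.91-fold, with the authors' values, which carry no floor, taken as deposited. As log2 the bounds were -1.71 over both pairs, -2.48 and -0.93. The bound of both pairs ran from -1.71 to -0.75 over the 8 settings. Among miRNAs detected on both arrays of a pair, 25.6% were at least 2-fold lower at passage 1 in the control pair and 17% in the OE pair. The strand took part in the choice of members, so nothing is read from these shares.

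**Figure D3:**
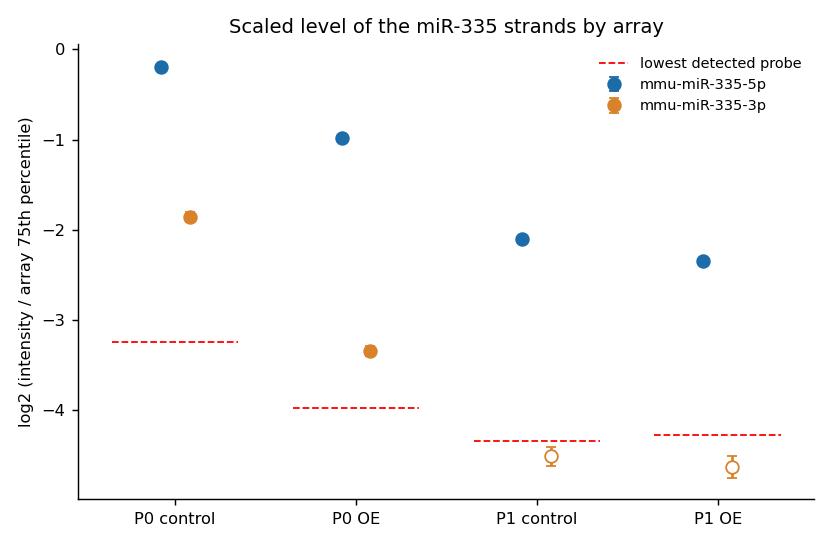
Level of each miR-335 strand by array, as log2 of intensity over the array's 75th percentile, with the standard error over spots. Filled points were detected, open points were not well above background, and red dashed lines mark the lowest detected probe. miR-335-5p runs from -0.19 to -2.34, and both open miR-335-3p points lie below the dashed line; the height of a strand against the other depends on the probes.

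Markers of other cell types moved with passage too. The 6 miRNAs of undifferentiated ESCs, the miR-302 and miR-290 clusters, had a summed scaled signal of 7.43 and 6.75 on P0 control and P0 OE. On the P1 ones it was 0.050 and 0.54. Of the 6, 5 and 6 were detected on the P0 arrays, and 1 and 5 on the P1 ones. Undetected members add nothing, so the sums give no fold change of the list. The P1 control sum is miR-302b alone, at the lowest detected level of that array (-4.34). miR-302b, the only member detected on all 4 arrays, had a passage difference of -3.24. The 3 neural miRNAs (miR-9, miR-9* and miR-124) summed to 5.29 and 4.14 on the P0 arrays and to 19.9 and 12.7 on the P1 ones. Within this list miR-124 ran against the sum, with a passage difference of -1.28 (limma adjusted p = 0.000133). limma no longer called it with a percentile over all probes (-0.53, adjusted p = 0.220), without scaling (-0.33, adjusted p = 0.734) or with the authors' processed values (-0.65, adjusted p = 0.0748). The part of these shifts in the miR-335 values was not tested. In the mesenchymal or mesodermal list, in the lineage Mest is named for, the 3 detected members followed the titles rather than passage. They were miR-199a-3p on all 4 arrays, with a title difference of 2.05, and miR-199a-5p and miR-214 on the OE arrays alone. The list's sums were 0.49 and 0.33 on the P0 and P1 control arrays, with 1 of 6 detected on each. On the OE arrays they were 2.16 and 2.40, with 3 of 6 detected on each. Part of the gap between these sums is thus detection, and they cover miR-199 and miR-214 miRNAs only. The other members, miR-126-3p, miR-143 and miR-145, were not well above background on any array.

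The comparison of OE and control asks whether miR-335 differed with NFIA overexpression. The level of miR-335-5p was lower on the OE arrays at both passages, with differences of -0.79 at passage 0 and -0.24 at passage 1. Over the settings they ran from -0.95 to -0.15 and from -0.53 to -0.02, and without scaling their order turned (-0.15 and -0.51). Over both passages the difference was -0.52, or 1.43-fold lower (SE 0.29, 95% interval -1.10 to 0.067, 2 arrays per title), and limma did not call it (Benjamini-Hochberg adjusted p = 0.688 over 153 miRNAs). limma called 4 of the 153 by title (2.61%). The interval holds both no difference and a change of over 2-fold. The adjusted p ran from 0.330 to 0.999 over the settings with a test, and the sign was negative in all of them. Arrays of a passage came from mixed cultures of the same spheres. With 1 array per title and passage, the residual is the change of the title difference between passages, pooled over the 153 miRNAs. The SE, interval and p-values rest on that alone and measure no spread between replicates.

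miR-335-3p could be compared by title only at passage 0, where both arrays measured it. It was 2.80-fold lower on the P0 OE array (log2 difference -1.48), with -1.50 and -1.47 by the 2 probes detected on both P0 arrays. The other probes of the strand gave smaller differences. They were -1.15 for the probe detected on neither P0 array and -1.25 for the probe detected on P0 control alone. This pair of arrays has no replicate and no test. Of the 179 miRNAs detected on both P0 arrays 7 were at least 2-fold lower (3.91%), and miR-335-3p had the rank 3 from the low end, with miR-335-5p at rank 14. The difference was -0.84 without scaling and -0.78 with normexp. At passage 1 the strand was not well above background on either array, and no fold is given.

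**Figure D4:**
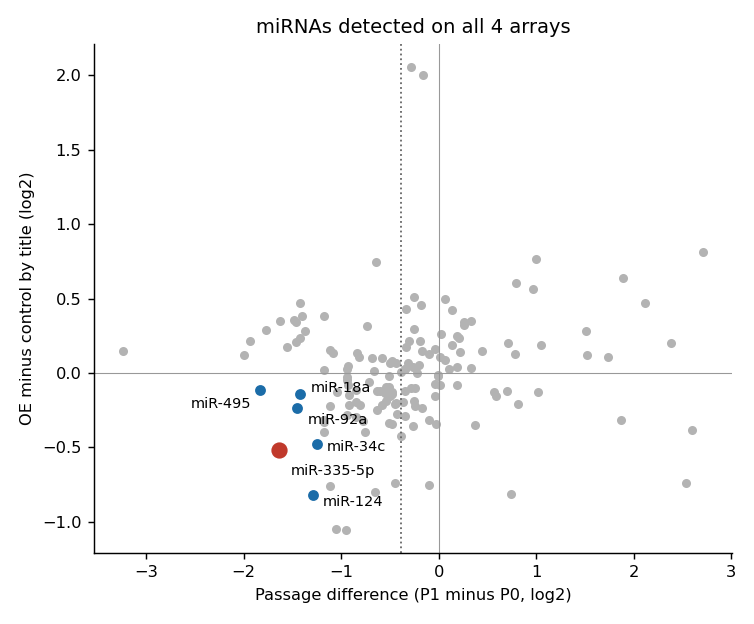
Title difference against passage difference (log2) for the 153 miRNAs detected on all 4 arrays. miR-335-5p is red (-1.63, -0.52), its 5 nearest profiles are blue and the dotted line marks the median passage difference of -0.39. miR-335-5p lies at the low end of passage and below 0 by title.

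The ratio of the strands was compared between arrays as well. A ratio between strands depends on the probes and their response, so only its change between arrays is compared. As log2 of 5p over 3p, on the probes used above, the ratio was 1.67 on the P0 control array and 2.36 on the P0 OE array. With 3p not well above background, the P1 arrays give a lower bound only, 2.24 for P1 control and 1.94 for P1 OE.

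The ratio differed by 0.70 between the P0 arrays, without a test. Of 168 precursors with both strands on the array, 16 had both detected on the P0 arrays, and the median size of their change was 0.27. Among these 16, miR-335 had the second largest change in size, after miR-135a at -0.81. The change for miR-335 was 0.59 with the authors' processed values and 0.17 with normexp. Between passages, the lower bound on the change of the ratio was 0.57 in the control pair, and 0.36 with quantile normalization and 0.033 with normexp. In the OE pair it was under 0 (-0.43), which gives no direction. The planned fit of the ratio by title over all 4 arrays could not include miR-335. It held the 14 precursors with both strands detected on every array.

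**Figure D5:**
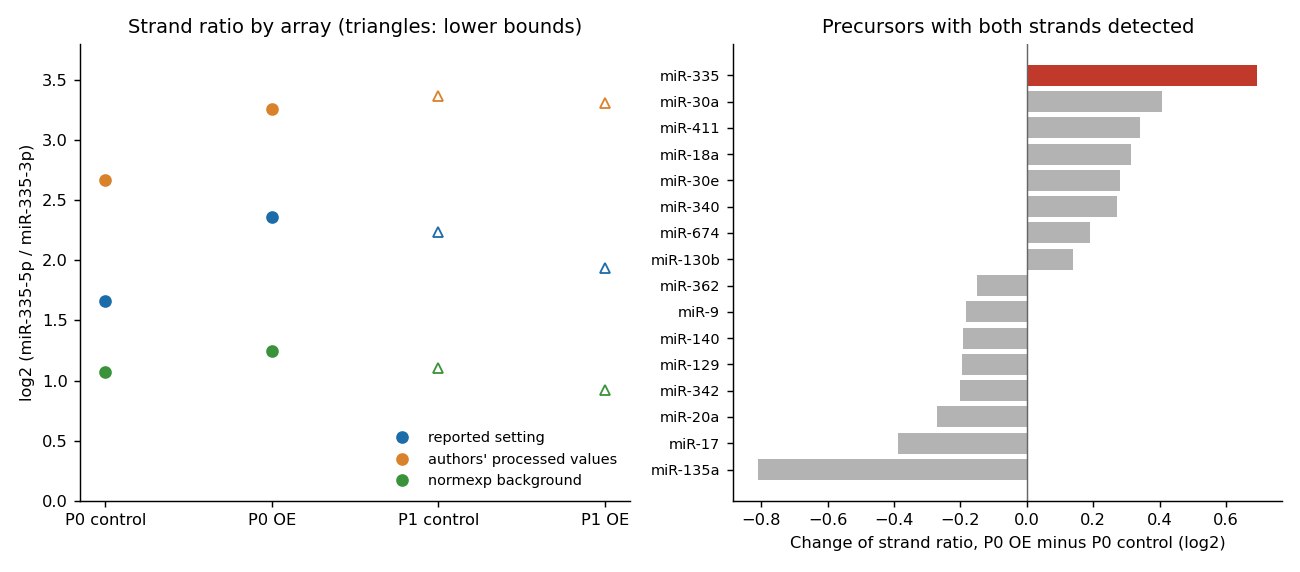
Left, log2 ratio of miR-335-5p to miR-335-3p on each array under 3 settings, with open triangles for the lower bounds where 3p was not well above background (for the authors' values, which carry no floor, the deposited ratio). Right, change of the strand ratio (named strand over star, or 5p over 3p) from the P0 control array to P0 OE for 16 precursors, with miR-335 in red at 0.70. In the reported setting the ratio is 1.67 on P0 control and 2.36 on P0 OE.

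The profiles most like that of miR-335-5p were sought among the other 152 miRNAs detected on all arrays, by the root-mean-square distance between mean-centred log2 levels over the 4 arrays. The nearest was miR-92a, of the miR-17 clusters tied to proliferation, at 0.17, followed by the p53-linked miR-34c at 0.22. miR-18a at 0.23, miR-495 of the imprinted Dlk1-Dio3 cluster at 0.23 and the neuronal miR-124 at 0.23 came next. The median distance was 0.69. The title difference at passage 1 was -0.54 for miR-124 and between -0.02 and 0.06 for the other 4, against -0.24 for miR-335-5p. A distance over 4 arrays describes these arrays and has no test.

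The other miRNAs reported to fall together with miR-335 in ethanol-exposed neurospheres are miR-9, miR-21 and miR-153. miR-9, abundant in neural progenitors, rose at passage 1 by 1.87 and the growth-linked miR-21 by 1.02 (limma adjusted p = 3.82e-08 and 0.00269). The call of miR-21 was lost with no filter on detection (limma adjusted p = 0.0732). miR-153, a neuronal miRNA, was at -0.65 (limma adjusted p = 0.0612). limma called it lower with normexp (adjusted p = 0.0376) and with medians of spots (adjusted p = 0.0437), while its sign was positive without scaling, in the authors' table and with a percentile over all probes. None of these 3 was called by title (0 of 3, against 2.61% of all 153), at -0.32, -0.13 and -0.80. With median centring limma called miR-153 by title (-0.93, adjusted p = 0.0425), and with the authors' processed values it was at -0.91 (adjusted p = 0.0503).

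Other imprinted loci gave few values. Of 8 miRNAs of the Gnas, H19, Igf2 and Prader-Willi regions, miR-296-5p and miR-298, both at Gnas, were detected on all 4 arrays. They were lower at passage 1, with differences of -0.72 and -0.83, and none was called by title (0, against 2.61% of all 153). By passage limma called both lower (adjusted p = 0.0370 and 0.0142), as it did 32.7% of all 153. Both calls were lost with median centring, quantile normalization, the authors' table, a percentile over all probes, no scaling, or no filter on detection, and that of miR-296-5p also with detection on at least 1 array. Without scaling both signs turned, to 0.23 and 0.12, and miR-296-5p was also at 0.032 with the percentile over all probes. miR-344 and miR-483* were missed on the P0 control array and detected on the other 3. miR-296-3p, miR-483, miR-675-5p and miR-675-3p were not well above background on any array.

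The miRNA genes within 1 Mb of Mir335 on chromosome 6, a set added by position after the design was fixed, did not follow it as a block. Mir182, Mir96 and Mir183, sensory-organ miRNAs of a shared cluster, lie 575, 572 and 572 kb upstream, and Mir29a and Mir29b-1 lie 321 and 322 kb downstream, all on the opposite strand. miR-29b was measured on all arrays and differed by 0.19 between passages (limma adjusted p = 0.613). With the authors' processed values limma called it higher at passage 1 (0.90, adjusted p = 0.0112), and with normexp (-0.27) and with no filter on detection (-0.25) its sign turned. It does not report on this locus alone, since a second gene elsewhere gives the same mature miRNA. miR-29a was detected on both P1 arrays and on neither P0 one. miR-96 was detected on both P0 arrays and on neither P1 one, and miR-183 on the P0 OE array alone. miR-182, miR-183*, miR-29a* and miR-29b* were not well above background anywhere.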

How the data were processed

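The authors deposited scanner files of spot intensity on a linear scale, which per the file headers came from Feature Extraction 10.5.1.1 with spatial detrending and background subtraction and without scaling between arrays. The authors' deposited table of processed intensity equalled the scanner's total gene signal over an array constant (20.3 for P0 control, 34.1 for P0 OE, 33.7 for P1 control, 31.0 for P1 OE). It was linear and not centred, with column medians of 0.882, 0.830, 0.700 and 0.816. What set the constants was not stated.

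Outside the controls there were 13000 spots of 1857 probes per array. Spots with an outlier flag (265 to 300) were left out, and no spot was saturated (0). Spots were averaged per probe, divided by the array's 75th percentile over probes detected on all 4 arrays, put on the log2 scale and averaged over a miRNA's detected probes. limma 3.58.1 in R 4.3.3 fitted title and passage as additive terms to 153 miRNAs. That left 1 residual degree of freedom each, the title-by-passage term, pooled over miRNAs to the same SD of 0.29 for all. A call needed a Benjamini-Hochberg adjusted p under 0.05. Single pairs were counted at 2-fold with no test. The alternatives were other scalings, normexp (offset 50), medians of spots, the authors' values, other filters, each probe or pair alone, and a fit without passage. All arrays came from 1 slide, with position confounded with title and passage. The number of arrays limits the precision.

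The members and lists were chosen with earlier results of these data known. The text names both strands, the 5 profiles nearest miR-335-5p, and the members of the fixed lists. The strand-ratio rule also named precursors with the largest and smallest passage change among the 14, which were miR-135a (0.73), miR-411 (0.45), miR-9 (-0.73) and miR-17 (-0.24). RNAfold was from ViennaRNA 2.7.2.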

Additional observations from a re-analysis of the deposited data

How the results depend on the processing

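miR-335-5p was lower at passage 1 in every setting, pair and probe run, and its title difference stayed uncalled in all settings with a test. The passage difference of miR-335-5p and the bound for miR-335-3p were -0.68 and -0.75 without scaling, -0.88 and -0.96 when scaled to all probes, -1.19 and -1.04 with normexp, and -1.31 and -1.11 after quantile normalization. With the authors' processed values, which carry no floor, the deposited differences of the strands were -0.98 and -1.36. By pair the miR-335-3p bound was -2.48 (control) and -0.93 (NFIA OE). The title difference of miR-335-3p at passage 0 was -0.84 without scaling and -0.78 with normexp, which also took that of the strand ratio to 0.17. The bound on the ratio's passage change was 0.07 over both pairs, and 0.57 and -0.43 in the control and NFIA OE pairs. It was -0.20 with quantile normalization and -0.15 with normexp, so its sign is not settled. The deposited ratio of the authors' processed values, which is no bound, changed by 0.37. By title, 2 miRNAs were called without scaling, without a detection filter, when scaled to all probes or after quantile normalization, 7 with median centring and, by limma without passage in the fit, 0 (2 at an unadjusted p under 0.05). By passage 70 were called as reported, 30 when scaled to all probes, 21 without scaling and 108 with detection on at least 1 array. With that last filter limma gave miR-335-3p, floored at the lowest detected signal, a title difference of -0.67 (adjusted p = 0.805). Both P1 values in that fit are the floors of their arrays (-4.34 for P1 control and -4.27 for P1 OE). The fit therefore cannot test the strand at passage 1, and nothing is concluded from it. miR-335-3p on the secondary arrays is limited by its signal, which lay at or under the lowest detected probe. The reported fit, with passage as a term, already pairs the OE and control arrays of each passage, and the fit without passage is the unpaired one. The planned title fit of the strand ratio was not run for miR-335, whose 3p strand was detected on 2 arrays.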
